A study of Mus musculus with 2 samples.

Results

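The S1P and LPA lysophospholipid genes are Enpp2, Sphk1, Sphk2, Spns2, Sgpl1, S1pr1, Plpp1, Plpp3, Lpar6 and Lpar4, taken from the deposited count matrices by their gene symbols. These are 10 of the 32285 genes in the files, and all 10 were found in both libraries. Sphingosine 1-phosphate (S1P) and lysophosphatidic acid (LPA) are signalling lipids that act outside the cell through G protein-coupled receptors. In lymph nodes, high endothelial cells line the venules through which lymphocytes enter, and lymphatic endothelial cells line the sinuses through which they leave; S1P in lymph is known to guide that exit, and autotaxin, the secreted enzyme encoded by Enpp2, makes LPA at high endothelial venules. Sphk1 and Sphk2 encode the kinases that make S1P, Spns2 its exporter and Sgpl1 the lyase that ends it. Plpp1 and Plpp3 encode lipid phosphate phosphatases that can dephosphorylate both lipids at the cell surface. S1pr1 encodes an S1P receptor, and Lpar4 and Lpar6 encode LPA receptors.

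RNA of single endothelial cells sorted from mouse lymph nodes was counted in 2 droplet libraries as UMIs, the molecular barcodes that count each captured RNA once. Each library mixed 4 pools told apart by hashtag oligonucleotides, 1 for each combination of genotype (wild-type, WT, or Xbp1-KO) and node site (peripheral or mesenteric). The product of Xbp1 is a stress-response factor that switches on genes of the secretory pathway, and the study asked about its role in high endothelial cells. All mice, WT included, were given tamoxifen, a drug that activates Cre fused to an oestrogen receptor domain. Which Cre line, which part of Xbp1 was removed, how many animals entered a pool, their age and their sex are not given in the sources used here. A group of tissue and genotype therefore holds 2 pools, a tissue 4 and a genotype 4. Peripheral and mesenteric pools of a library may share animals, and p-values measure the spread between pools, which holds differences of library, sex and animal together.

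Library 1 held 33024170 gene UMIs in 7709 barcodes, library 2 held 14744778 in 2903, and 9275 cells were used. Of these, 9019 fell into 14 endothelial subsets, 9 of blood and 5 of lymphatic endothelium, in which 86.5% to 96.2% of the cells had a UMI of the endothelial gene Cdh5. Levels are in CPM, the counts of a sum over cells scaled to a fixed total of gene UMIs. A single cluster of 481 cells (12 to 131 per pool) made up the high endothelial-like class, led by Ccl21a, Glycam1 and Serpina1e; the other blood class holds 4835 cells (244 to 1070 per pool) and the lymphatic class 3703 (64 to 1295 per pool). The 10 genes and the listed pathway genes were kept out of clustering and naming, but the classes were still built from the same cells. Tests between classes therefore only set a difference against the spread over pools. In other blood cells Xbp1 itself ranged over 169 to 250.2 CPM for WT and over 89.7 to 132 CPM for Xbp1-KO pools, and at 56.9 to 122 against 47.1 to 54.3 CPM in lymphatic cells. In high endothelial-like cells the WT pools lay at 257 to 501 CPM and the Xbp1-KO pools at 171 to 326 CPM, ranges that overlap; counts from the 3' end check a deletion only if it removes that end. The long noncoding RNA Xist, made in cells with 2 X chromosomes, was at 569 to 980 CPM in the Xbp1-KO pools of library 1 and the WT pools of library 2 and at no more than 5.12 CPM in the other pools, so the 2 pools of each group were of opposite sex and came from different animals. The libraries shared 3 barcodes, 2 of them among the cells used.

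Promoter sequences are shown for the 3 genes whose levels were lower in both high endothelial-like and lymphatic cells than in other blood cells and that have an entry in the RefSeq promoter table. Each is the 250 bases before the annotated start on build GRCm38.p6, 5′ to 3′ on the gene's own strand; the windows are chr4:105157097-105157346 (+) for Plpp3, chr14:73237641-73237890 (+) for Lpar6 and chrX:106920375-106920624 (+) for Lpar4. Capitals mark CACCC or its reverse complement GGGTG, letters known as the core of the sites of KLF factors; Klf2 and Klf4, KLF factors of endothelium, are among the pathway genes below.
Plpp3: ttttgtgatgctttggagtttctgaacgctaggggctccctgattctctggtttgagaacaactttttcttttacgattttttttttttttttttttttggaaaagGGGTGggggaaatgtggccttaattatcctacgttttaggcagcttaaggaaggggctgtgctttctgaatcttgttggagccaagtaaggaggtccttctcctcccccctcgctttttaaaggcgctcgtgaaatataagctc
Lpar6: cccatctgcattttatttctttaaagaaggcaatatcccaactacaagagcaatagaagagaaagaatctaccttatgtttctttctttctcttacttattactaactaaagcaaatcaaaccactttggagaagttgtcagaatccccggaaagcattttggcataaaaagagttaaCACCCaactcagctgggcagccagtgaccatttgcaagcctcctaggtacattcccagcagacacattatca
Lpar4: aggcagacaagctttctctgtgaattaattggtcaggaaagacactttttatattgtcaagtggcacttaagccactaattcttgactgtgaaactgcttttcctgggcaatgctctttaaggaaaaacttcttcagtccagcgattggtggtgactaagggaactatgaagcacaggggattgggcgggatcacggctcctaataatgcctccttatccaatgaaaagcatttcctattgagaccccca
The letters occur 1 time in the Plpp3 window, 1 time in the Lpar6 window and not in the Lpar4 window. Counted the same way on both strands, with overlapping matches allowed, 52.0% of 32851 promoters of that length hold them. A match describes the letters and is no measured binding site. Of the other genes, Sphk1, Sphk2, Sgpl1 and Spns2 have promoter entries that are not printed, while Enpp2, S1pr1 and Plpp1 were not matched. The letters occur 0 to 4 times in the windows of Sphk1, a gene not lower in these classes, and 1 and 2 times in those of Sphk2. They occur 0 times for Sgpl1 and for Spns2, whose entry lies inside the gene.

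**Figure D1:**
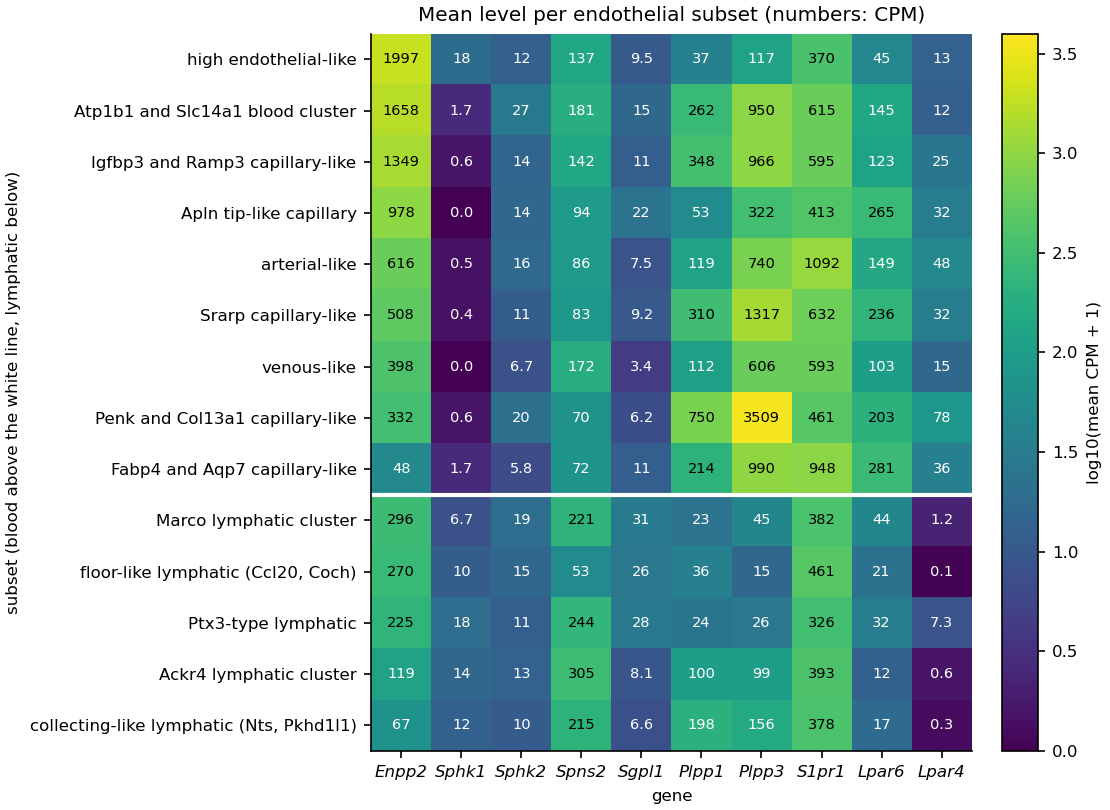
Mean level of each of the 10 genes (columns) in each of 14 endothelial subsets (rows), in CPM averaged over the pools with at least 10 cells of the subset; colour shows log10(mean CPM + 1). Enpp2 was highest in high endothelial-like cells (1997 CPM) and Plpp3 in Penk and Col13a1 capillary-like cells (3509 CPM), while Lpar4 was near 0 in 4 of 5 lymphatic subsets.

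Enpp2 (gene ENSMUSG00000022425, GRCm38 chr15:54838901-54952892, minus strand) separated the 3 classes. In high endothelial-like cells its level was lowest at 1360 CPM, median 1908 and highest at 2564 over the 8 pools, with a mean of 1997 ± 449 CPM (SD, n = 8). Other blood cells ranged from 482 to 1248 CPM with a median of 693, and lymphatic cells from 113 to 279 CPM with a median of 191. No pool of one class reached the range of another. By edgeR's quasi-likelihood test with the pool as a block, Enpp2 was 3.46-fold higher in high endothelial-like than in other blood cells (log2 difference 1.79 ± 0.13 SE, adjusted p = 4.74e-12) and 13.8-fold higher than in lymphatic cells (3.78 ± 0.14, adjusted p = 8.99e-22). It was 4.34-fold lower in lymphatic than in other blood cells (-2.12 ± 0.08, adjusted p = 1.93e-14).

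The other blood class was far from uniform for Enpp2. A cluster led by Atp1b1, Slc14a1 and Aqp1 had a mean of 1658 ± 464 CPM (SD, n = 6 pools), and Igfbp3 and Ramp3 capillary-like cells had 1349 ± 473 CPM (n = 8). Both ranges, 996 to 2200 and 765 to 1907 CPM, overlap that of high endothelial-like cells. Peripheral pools alone overlapped too, while in mesenteric nodes the high endothelial-like pools (1532 to 2326 CPM) lay above those of Igfbp3 and Ramp3 cells (765 to 1182 CPM) and the 2 of the Atp1b1 cluster (996 and 1270 CPM). Apln tip-like capillary cells followed at 978 ± 566 CPM (n = 5), arterial-like cells at 616 CPM and Srarp capillary-like cells at 508 CPM. The lowest mean of all subsets was that of Fabp4 and Aqp7 capillary-like cells, at 48.0 ± 31.6 CPM, 41.6-fold below high endothelial-like cells. An Enpp2 UMI was found in 98.1% of high endothelial-like cells (median depth 7603 UMIs) and in 6.77% of Fabp4 and Aqp7 capillary-like cells (1844 UMIs). After thinning to 1500 UMIs, which left out 476 shallower cells of all those used, so that 479 of 481 high endothelial-like and 354 of 502 Fabp4 and Aqp7 capillary-like cells remained, the shares were 86.8% of 479 and 6.78% of 354 cells. Neighbours in the order of the 14 means overlapped in their ranges over pools in each of 13 pairs.

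**Figure D2:**
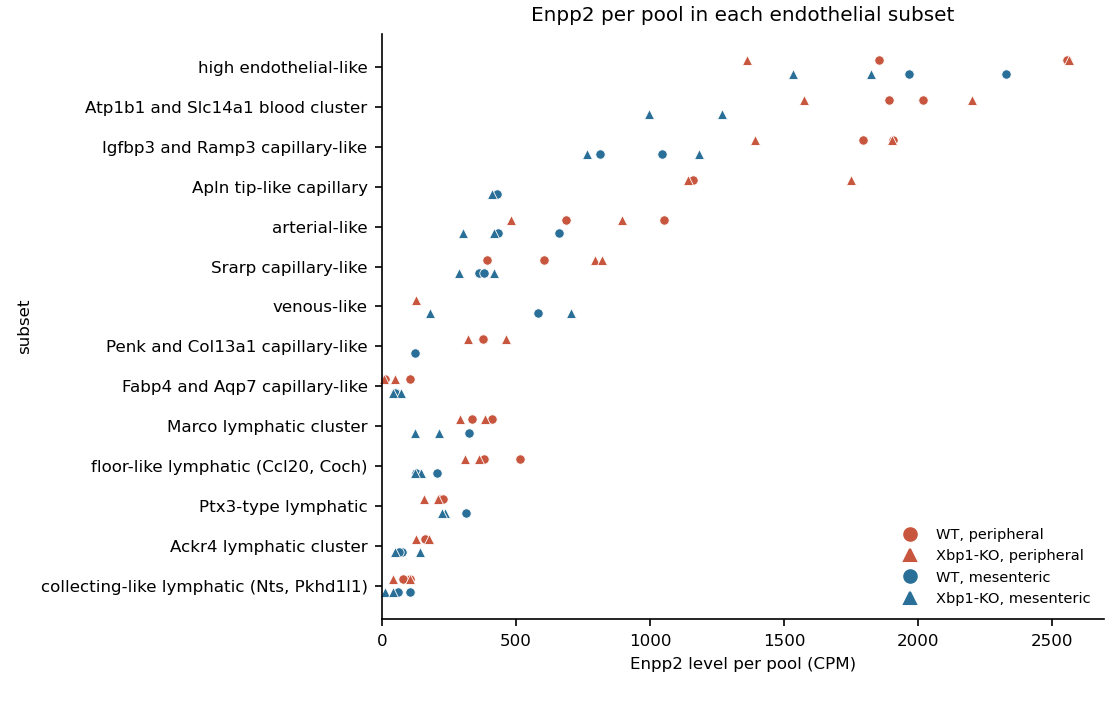
Enpp2 level in CPM (x axis) in each pool with at least 10 cells of the subset (y axis); circles are WT pools, triangles Xbp1-KO pools, red peripheral and blue mesenteric nodes. Peripheral pools lie to the right of mesenteric ones in floor-like lymphatic cells, at a mean of 392 against 149 CPM, and both tissues share one range in high endothelial-like cells.

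The S1P kinases were low throughout. Sphk1 (ENSMUSG00000061878, chr11:116530925-116536674, plus strand) had a lowest pool of 9.36, a median of 16.4 and a highest pool of 34.2 CPM in high endothelial-like cells, on 70 UMIs in all. Lymphatic cells lay at 8.09, 10.1 and 21.6 CPM in the same order, on 255 UMIs, and other blood cells at 0, 0.810 and 2.45 CPM, on only 14 UMIs in 4835 cells. The pool at 0, WT mesenteric of library 2, allows up to 3.18 CPM (3 counts; counting error only). Every high endothelial-like and every lymphatic pool was thus above every pool of other blood cells. Sphk1 was 11-fold higher in lymphatic than in other blood cells (log2 difference 3.46 ± 0.31, edgeR adjusted p = 8.05e-09). Against other blood cells, the high endothelial-like class had too few counts for the filter on low counts. Without that filter the log2 difference was 4.42 ± 0.41 (edgeR adjusted p = 6.01e-25). That fit keeps all low-count genes, so its p is not comparable with those of the filtered fits. Between the 2 classes with Sphk1, high endothelial-like cells were 1.82-fold higher, in 6 of 8 pools (0.86 ± 0.28, adjusted p = 0.011), but this call was lost without the pools of library 1 (0.43, adjusted p = 0.563) and with scaling to total counts alone (0.44, adjusted p = 0.167). Among subsets, the highest Sphk1 means were those of Ptx3-type lymphatic cells (18.1 CPM), high endothelial-like cells (17.6 CPM) and the Ackr4 lymphatic cluster (14.3 CPM). Their ranges overlap, and the Ptx3-type mean rests on 7 pools from 0 to 48.8 CPM (SD 18.4). In each of the other 8 blood subsets the mean was at most 1.74 CPM.

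Sphk2 (ENSMUSG00000057342, chr7:45709467-45718002, minus strand) did not follow this pattern. Its means were 11.9 ± 10.3 CPM in high endothelial-like, 13 ± 4.06 in other blood and 14.0 ± 3.17 in lymphatic cells (SD, n = 8 each), and the pools of the 3 classes overlapped. The lymphatic to other blood log2 difference was -0.02 ± 0.15 (edgeR adjusted p = 0.926). Values for the high endothelial-like class were -0.12 ± 0.31 against other blood and -0.05 ± 0.31 against lymphatic cells, and with an SE as large as 0.31 a moderate difference was not detectable at this depth. In 1 high endothelial-like pool, WT peripheral of library 1, no Sphk2 UMI was found, which allows up to 28.1 CPM. Sphk2 shares 2546 bases with Rpl18 and 737 with Dbp on the opposite strand.

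Spns2 (ENSMUSG00000040447, chr11:72451638-72489904, minus strand), the exporter, was highest in lymphatic cells, with 150.3 CPM in the lowest pool, a median of 175 and 249 CPM in the highest. Other blood pools ran from 84.4 to 127 CPM, below all of these, and high endothelial-like pools from 104 to 182 CPM, overlapping both. Spns2 was 1.52-fold higher in lymphatic than in other blood cells (log2 difference 0.60 ± 0.11, edgeR adjusted p = 0.000122). High endothelial-like cells were 1.53-fold higher than other blood cells in the fit (0.62 ± 0.10, adjusted p = 2.08e-05) and higher in CPM in 6 of 8 pools, but with scaling to total counts the value was 0.26 (adjusted p = 0.0752). Against lymphatic cells the fit gave 0.05 ± 0.13 (adjusted p = 0.764) although 0 of 8 high endothelial-like pools were higher in CPM, and with total counts it gave -0.39 (adjusted p = 0.0158). The 5 most abundant genes took 8.42% to 27.3% of the UMIs of high endothelial-like pools, Glycam1 alone 0.841% to 20.2%, against 7.18% to 9.03% for the top 5 in the other classes. Total-count scaling moved the median of all genes by -0.36 and -0.44 in the contrasts of high endothelial-like cells with other blood and with lymphatic cells, so small differences of that class are relative to the scaling.

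Lymphatic subsets differed widely in Spns2. The Ackr4 lymphatic cluster had the highest mean of all 14 subsets, 305 ± 39.9 CPM (range 213 to 349, n = 8), then Ptx3-type cells at 244, the Marco cluster at 221 and collecting-like cells at 215 CPM. Floor-like lymphatic cells, led by Ccl20 and Coch, had the lowest, 53.0 ± 17.3 CPM (range 31.9 to 82.3, n = 8), a fold of 5.75 between the extremes. Ranges of the highest and lowest subset do not overlap, while all 13 neighbouring pairs do. Among blood subsets the Atp1b1 cluster (181 CPM) and venous-like cells (172 CPM) were highest.

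Sgpl1 (ENSMUSG00000020097, chr10:61098642-61147703, minus strand), the lyase, was 1.75-fold higher in lymphatic than in other blood cells (log2 difference 0.81 ± 0.15, edgeR adjusted p = 0.000152). Lymphatic pools ranged from 14.2 to 24.1 CPM (median 18.9) and other blood pools from 6.52 to 13.1 CPM (median 9.19), without overlap. Without the pools of library 1 the difference was 0.55 (adjusted p = 0.110). High endothelial-like cells had only 34 Sgpl1 UMIs and a mean of 9.5 ± 5.16 CPM, with 1 pool at 0, Xbp1-KO peripheral of library 1, which allows up to 9.49 CPM. They were 1.76-fold below lymphatic cells (-0.82 ± 0.30, adjusted p = 0.0233), a call lost with WT pools alone (-0.55, adjusted p = 0.438) and without the pools of library 1 (-0.41, adjusted p = 0.597). The Marco cluster (31.0 CPM), Ptx3-type (27.6 CPM) and floor-like cells (25.9 CPM) had the highest means.

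The phosphatases Plpp1 and Plpp3 were mainly genes of other blood cells. Plpp3 (ENSMUSG00000028517, chr4:105157347-105232764, plus strand) had 1110 CPM in the lowest, 1267 in the median and 1945 in the highest pool of other blood cells. High endothelial-like pools lay between 75.9 and 217 CPM (median 103) and lymphatic pools between 47.4 and 96.2 CPM (median 58.0). No pool outside the other blood class came near its range. The fold was 25.8 lower in lymphatic (log2 difference -4.69 ± 0.11, edgeR adjusted p = 1.04e-16) and 9.30 lower in high endothelial-like cells (-3.22 ± 0.09, adjusted p = 8.12e-20) than in other blood cells. High endothelial-like cells were above lymphatic cells by 2.57-fold, in 7 of 8 pools (1.36 ± 0.14, adjusted p = 6.84e-10).

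Within other blood endothelium the subsets differed in Plpp3. Penk and Col13a1 capillary-like cells had 3509 ± 251 CPM (range 3292 to 3883, n = 5), entirely above the second subset, Srarp capillary-like cells, at 1317 ± 160.5 CPM (range 1009 to 1498, n = 8). A second gap lay between venous-like cells at 606 CPM (402 to 705) and Apln tip-like cells at 322 CPM (244 to 377). These were the 2 of 13 neighbouring pairs without overlap. None of the other S1P and LPA lysophospholipid genes had such a pair. How common such pairs are among all genes was not tested. Fabp4 and Aqp7 capillary-like, Igfbp3 and Ramp3 capillary-like and Atp1b1 cells lay together at 990, 966 and 950.1 CPM. At the low end, floor-like lymphatic cells had 14.6 ± 7.74 CPM, a fold of 240.1 from the top.

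Plpp1 (ENSMUSG00000021759, chr13:112800792-112867894, plus strand) was at 268 to 438 CPM in pools of other blood cells (median 330.3), at 46.4 to 126 CPM in lymphatic pools (median 69.1) and at 22.1 to 57.0 CPM in high endothelial-like pools (median 33.0). It was 5.41-fold lower in lymphatic (log2 difference -2.44 ± 0.13, edgeR adjusted p = 3.7e-12) and 7.75-fold lower in high endothelial-like cells (-2.95 ± 0.12, adjusted p = 8.15e-17) than in other blood cells. Unlike Plpp3, it was lower in high endothelial-like than in lymphatic cells, by 1.76-fold and in 7 of 8 pools (-0.81 ± 0.19, adjusted p = 0.000485). Penk and Col13a1 capillary-like cells again had the highest mean, 750.1 ± 136 CPM (range 562 to 894, n = 5). Collecting-like lymphatic cells stood apart from the other lymphatic subsets at 198 ± 45.0 CPM, against 22.9 CPM in the Marco cluster, 24.5 in Ptx3-type cells and 99.9 in the Ackr4 cluster. Plpp1 shares 477 bases with Mtrex on the opposite strand, and no gene overlaps Plpp3.

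S1pr1 (ENSMUSG00000045092, chr3:115710433-115715072, minus strand), the S1P receptor, was present in every class and subset. Other blood pools ranged from 549.6 to 744 CPM (median 649), lymphatic pools from 355 to 496 CPM (median 400.2) and high endothelial-like pools from 266 to 456 CPM (median 391). The other blood class lay above both others without overlap. S1pr1 was 1.78-fold lower in lymphatic (log2 difference -0.83 ± 0.08, edgeR adjusted p = 1.8e-08) and 1.40-fold lower in high endothelial-like cells (-0.48 ± 0.09, adjusted p = 4.92e-05) than in other blood cells. Between high endothelial-like and lymphatic cells it gave 0.28 ± 0.12 (adjusted p = 0.0504), higher in 4 of 8 pools; DESeq2 put the same contrast at 0.27 (adjusted p = 0.0459), edgeR without the block at 0.27 (adjusted p = 0.0401) and finer clustering at 0.30 (adjusted p = 0.0376). With scaling to total counts its sign changed (-0.16, adjusted p = 0.292). Arterial-like cells had the highest mean, 1092 ± 178 CPM (range 875 to 1378), beside Fabp4 and Aqp7 capillary-like cells at 948 CPM, and Ptx3-type lymphatic cells the lowest, 326 CPM, a fold of 3.35, the smallest such fold among the 9 genes with a mean above 0 in every subset.

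Lpar6 and Lpar4, the LPA receptor genes among the 10, were mainly in other blood cells. Lpar6 (ENSMUSG00000033446, chr14:73237895-73243294, plus strand), a gene of 1 exon that lies within Rb1 on the opposite strand, had 147 CPM in the lowest, 184 in the median and 251 in the highest pool of other blood cells. Its range was 24.1 to 91.2 CPM in high endothelial-like pools and 4.74 to 40.5 CPM in lymphatic pools. Lpar6 was 9.05-fold lower in lymphatic (log2 difference -3.18 ± 0.13, edgeR adjusted p = 2.79e-14) and 4.17-fold lower in high endothelial-like cells (-2.06 ± 0.16, adjusted p = 3.34e-11) than in other blood cells. High endothelial-like cells were 2.40-fold above lymphatic cells, in 7 of 8 pools (1.26 ± 0.24, adjusted p = 3.62e-05). Fabp4 and Aqp7 capillary-like cells (281 CPM), Apln tip-like cells (265 CPM) and Srarp capillary-like cells (236 CPM) had the highest means and the Ackr4 lymphatic cluster the lowest, 12.1 CPM.

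Lpar4 (ENSMUSG00000049929, chrX:106920625-106933900, plus strand) had the largest difference between lineages. Other blood pools ranged from 28.2 to 45.8 CPM (median 35.3), high endothelial-like pools from 7.51 to 22.8 CPM (median 11) and lymphatic pools from 0.431 to 2.40 CPM (median 0.809), so the 3 ranges did not touch. All lymphatic cells together held 19 Lpar4 UMIs. Lpar4 was 42-fold lower in lymphatic (log2 difference -5.39 ± 0.22, edgeR adjusted p = 6.71e-14) and 2.20-fold lower in high endothelial-like cells (-1.14 ± 0.21, adjusted p = 7e-05) than in other blood cells. The contrast of high endothelial-like with lymphatic cells fell under the filter on low counts. Without it the log2 difference was 3.67 ± 0.49 (edgeR adjusted p = 2.17e-12, not comparable with the filtered fits), higher in 8 of 8 pools. Penk and Col13a1 capillary-like cells had the highest mean, 78.0 ± 26.1 CPM, and arterial-like cells followed at 48.4 CPM. In floor-like lymphatic cells 1 UMI was found in 1278 cells.

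**Figure D3:**
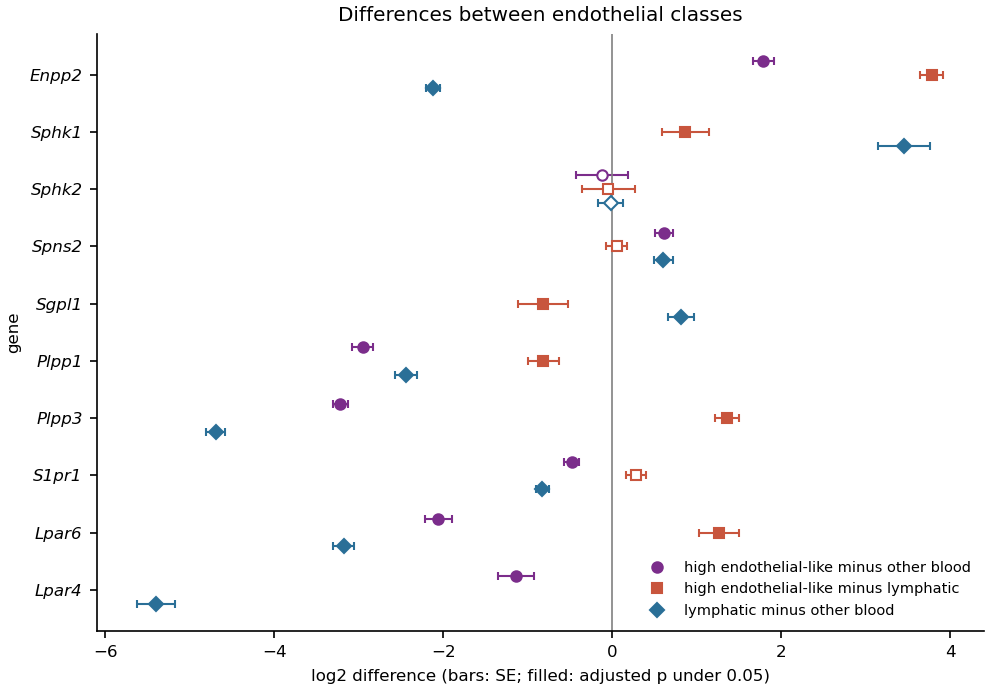
Log2 difference (x axis, with SE bars) of each gene (y axis) in 3 contrasts of classes from edgeR fits with the pool as a block, n = 8 pools; filled symbols have an adjusted p under 0.05. Lpar4 (-5.39) and Plpp3 (-4.69) lie farthest left in the lymphatic minus other blood contrast and Enpp2 (3.78) farthest right in the high endothelial-like minus lymphatic contrast.

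Counted over the 10 genes, 9 of 10 passed the test between lymphatic and other blood cells, 3 higher (Sphk1, Spns2, Sgpl1) and 6 lower (Enpp2, S1pr1, Plpp1, Plpp3, Lpar6, Lpar4). Of all 9965 genes tested, 59.7% passed, 31.8% higher and 27.9% lower, so a call alone was common. The median log2 difference was -1.47 for the 10 genes and 0.04 for all genes. Between high endothelial-like and other blood cells 7 of 8 tested genes passed, 2 higher (Enpp2, Spns2) and 5 lower (S1pr1, Plpp1, Plpp3, Lpar6, Lpar4), beside 43.6% of 7508 genes (21.2% higher, 22.5% lower), with medians of -0.81 and -0.03. Between high endothelial-like and lymphatic cells 6 of 9 passed, 4 higher and 2 lower, beside 46.5% of 7909 genes (18.6% higher, 27.9% lower), with medians of 0.28 and -0.11. The 3 contrasts share the same class sums and are not independent of each other.

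**Figure D4:**
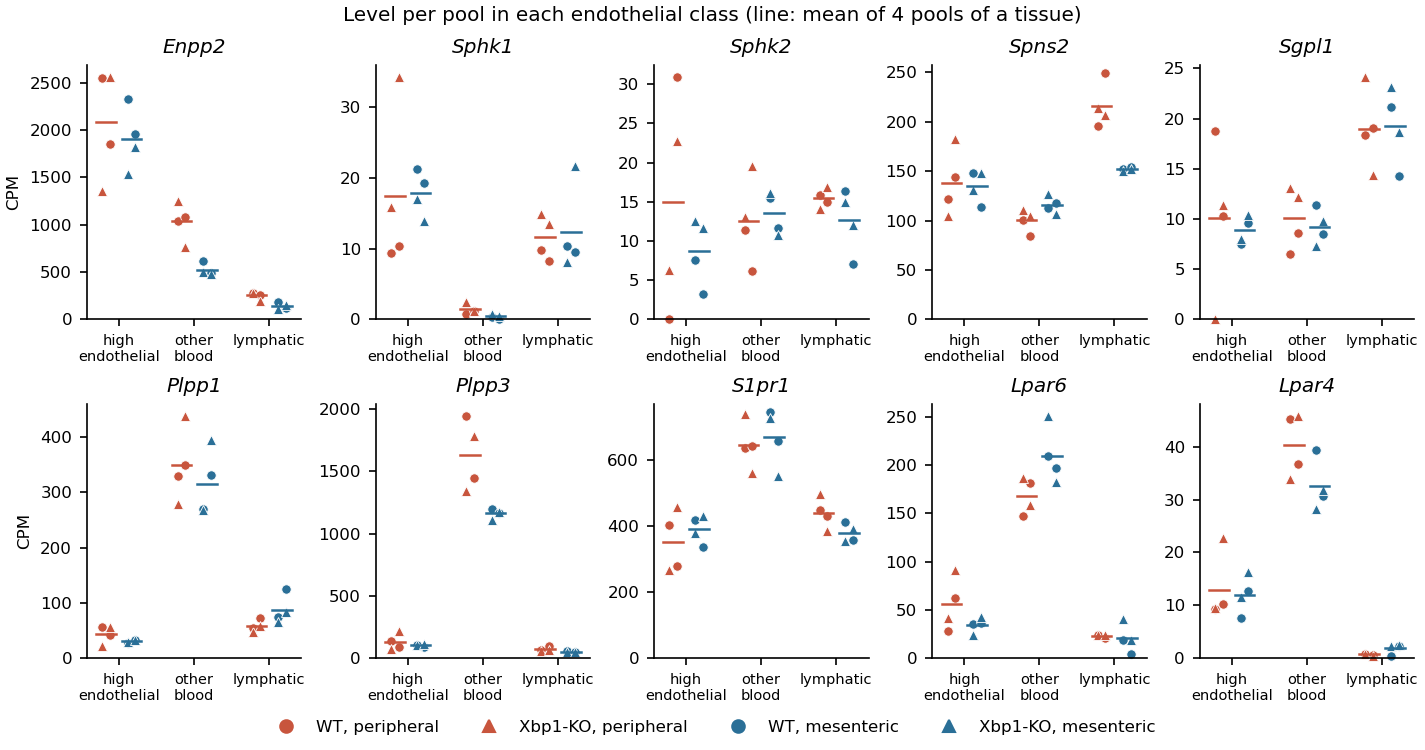
Level in CPM (y axis, from 0) of each gene in each of the 8 pools, by class; circles are WT pools, triangles Xbp1-KO pools, red peripheral and blue mesenteric nodes, and lines the mean of the 4 pools of a tissue. In other blood cells the peripheral pools of Enpp2 (769 to 1248 CPM) lie above the mesenteric ones (482 to 617 CPM).

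Peripheral and mesenteric nodes differed most clearly in Enpp2. In other blood cells Enpp2 was at 1043, 1248, 1086 and 769 CPM in the peripheral pools and at 617, 500.4, 492 and 482 CPM in the mesenteric pools, given for WT and Xbp1-KO of library 1 and then of library 2. All 4 peripheral pools were above all 4 mesenteric pools. The means of 1036 ± 199 and 523 ± 63.1 CPM (SD, n = 4 each) differed by 1.97-fold (log2 difference 0.98 ± 0.17, edgeR adjusted p = 0.0219). In lymphatic cells the values were 275, 279, 258 and 197 CPM in peripheral and 185, 113, 123 and 147 CPM in mesenteric pools, again without overlap. The difference was 1.64-fold (0.71 ± 0.15, edgeR adjusted p = 0.0152). Without the pools of library 1 it was 0.63 and did not pass. In high endothelial-like cells the peripheral pools had 2554, 1360, 1852 and 2564 CPM and the mesenteric pools 2326, 1532, 1964 and 1822 CPM, which interleave (0.10 ± 0.21, adjusted p = 0.969). The tissue difference itself was smaller in high endothelial-like than in other blood cells, by 1.82-fold (class-by-tissue term -0.86 ± 0.16, adjusted p = 0.00124), a term that 1.21% of genes passed. Against lymphatic cells the term was -0.70 ± 0.21 (adjusted p = 0.0711, beside 1.5% of genes).

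Enpp2 was the only one of the 10 genes to pass in the main tissue fits, in other blood cells beside 0.967% and in lymphatic cells beside 5.0% of all genes; none passed in high endothelial-like cells, where 0.435% of genes did. With the library as a block, 2 more passed in lymphatic cells, where 13.1% of genes then passed, 1 more in other blood cells (4.95%) and none in high endothelial-like cells (0.72%). In lymphatic cells Plpp1 was lower in peripheral nodes (main fit -0.64 ± 0.18, adjusted p = 0.0542; blocked -0.61, adjusted p = 0.000943) and Spns2 higher (0.42 ± 0.12, adjusted p = 0.0584; blocked 0.41, adjusted p = 0.00647). Without the pools of library 2 these were -0.55 and 0.34, from 1 pool per group of tissue and genotype. Spns2 scaled to total counts gave 0.50 (edgeR adjusted p = 0.027). Spns2 in lymphatic cells was at 196, 214, 249 and 207 CPM in peripheral pools and at 152, 150.3, 154 and 153 CPM in mesenteric pools, which do not overlap. Plpp1 was at 54.1, 46.4, 72.3 and 58.7 CPM in peripheral and 73.8, 65.9, 126 and 84.1 CPM in mesenteric pools, overlapping by 1 peripheral pool, WT of library 2. Both genes differed from other blood cells in their tissue difference, Spns2 by 0.62 ± 0.15 (edgeR adjusted p = 0.0153) and Plpp1 by -0.72 ± 0.16 (adjusted p = 0.00639), terms that 4.59% of genes passed. In other blood cells Plpp3 was at 1945, 1339, 1444 and 1782 CPM in peripheral and 1196, 1110, 1168 and 1172 CPM in mesenteric pools, without overlap, with 0.48 ± 0.15 (adjusted p = 0.254) in the main and 0.48 (adjusted p = 0.0123) in the blocked fit. Without the pools of library 1 the value was 0.44 and without those of library 2 it was 0.49, each from 1 pool per group of tissue and genotype. In none of the 4 tested subsets of other blood cells did Plpp3 pass as higher in peripheral nodes. The remaining genes had adjusted p of 0.243 or more in each class in the main fit, Lpar6 in other blood cells among them (-0.33 ± 0.14, adjusted p = 0.520). Without the pools of library 2 that value was -0.47.

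**Figure D5:**
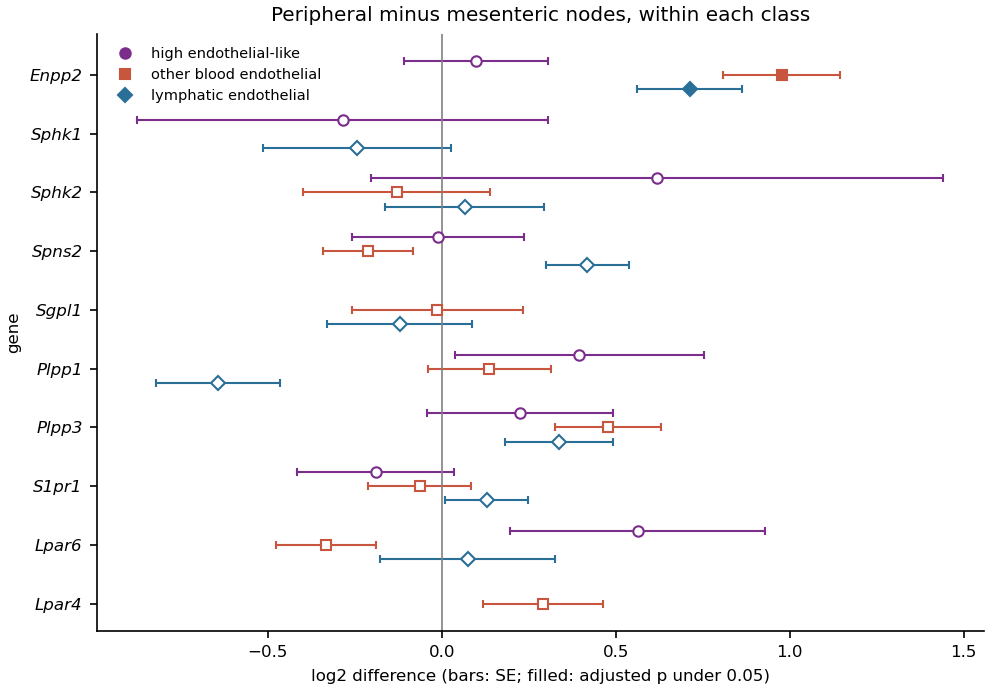
Log2 difference between peripheral and mesenteric nodes (x axis, with SE bars) of each gene (y axis) within each class, from edgeR fits without a block, n = 4 pools per tissue; filled symbols have an adjusted p under 0.05. Only the Enpp2 symbols of other blood (0.98) and lymphatic cells (0.71) are filled.

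The mix of subsets within a class also differed by tissue. The Atp1b1 cluster, high in Enpp2, was 10.7% to 16.3% of other blood cells in peripheral and 0.712% to 3.34% in mesenteric pools. Penk and Col13a1 capillary-like cells, high in Plpp3 and Plpp1, were 19.98% to 30.5% against 1.49% to 2.62%, and Srarp capillary-like cells 7.95% to 13.6% against 28.8% to 56.4%. Among lymphatic cells the Ackr4 cluster was 30.1% to 44.0% in peripheral and 14.3% to 21.8% in mesenteric pools. Contrasts within single subsets, added after the class results were seen and run where at least 10 cells per pool allowed, do not depend on those shares.

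The Enpp2 difference was also present within some single subsets of both lineages. In Igfbp3 and Ramp3 capillary-like cells the mean was 1748 CPM in peripheral and 951 CPM in mesenteric pools (log2 difference 0.89 ± 0.17, edgeR adjusted p = 0.00253, beside 0.943% of genes). In Srarp capillary-like cells it was 654 against 362 CPM (0.82 ± 0.19, adjusted p = 0.0219, beside 1.5%), and in floor-like lymphatic cells 392 against 149 CPM (1.14 ± 0.17, adjusted p = 4.63e-05, beside 14.2%), each with 4 of 4 pairs of pools higher in peripheral nodes. The Ackr4 cluster gave 0.74 ± 0.22 (adjusted p = 0.0966; with the library block 0.0269; beside 1.53% and 4.01% of genes) and arterial-like cells 0.78 ± 0.22 (adjusted p = 0.350; blocked 0.0129; beside 0.191% and 0.885%). In the Ptx3-type lymphatic subset the order was the other way, 193 CPM in peripheral and 257 CPM in mesenteric pools, in 3 of 3 pairs and untested. Fabp4 and Aqp7 capillary-like cells, low in Enpp2, had 42.7 against 53.4 CPM with 1 of 4 pairs higher in peripheral nodes, and the single pair of venous-like pools had 126 against 179 CPM. Collecting-like lymphatic cells had 81.3 against 53.6 CPM, with 3 of 4 pairs higher in peripheral nodes. Their ranges overlap (39.5 to 104 and 9.38 to 106 CPM).

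Plpp1 was lower in peripheral nodes in each of 4 pairs of pools in 5 subsets. The means of peripheral and mesenteric pools were 238 against 383 CPM in Srarp, 282 against 415 CPM in Igfbp3 and Ramp3, 26.8 against 45.2 CPM in floor-like, 79.1 against 121 CPM in Ackr4 and 172 against 224 CPM in collecting-like cells. In arterial-like cells (102 against 136 CPM) 1 of 4 pairs went the other way. Plpp1 was instead higher in peripheral nodes in 3 of 4 pairs of Fabp4 and Aqp7 capillary-like cells (235 against 192 CPM) and in 3 of 4 pairs of high endothelial-like cells (44.1 against 30.5 CPM). The floor-like contrast passed the test (-1.04 ± 0.21, edgeR adjusted p = 0.00158), and those of Srarp (-0.64, adjusted p = 0.00422, beside 3.71% of genes) and Igfbp3 and Ramp3 cells (-0.52, adjusted p = 0.00673, beside 2.97%) passed only with the library block. For the whole other blood class, in contrast, the Plpp1 difference was 0.14 ± 0.18 (adjusted p = 0.964) in the main fit. Spns2 within floor-like lymphatic cells was at 67.2 against 38.9 CPM (0.62 ± 0.21, adjusted p = 0.0525; blocked 0.0346, beside 16.4% of genes), while the Ackr4 cluster had 311 against 299 CPM (-0.03 ± 0.16) and 1 of 4 pairs higher in peripheral nodes. It was higher in every pair of Marco (257 against 155 CPM, 3 pairs), Ptx3-type (272 against 190.1 CPM, 3 pairs) and collecting-like cells (232 against 197 CPM, 4 pairs); of these, the collecting-like contrast was tested and did not pass (0.25 ± 0.23, adjusted p = 0.931). Among blood subsets Spns2 was lower in peripheral nodes in 4 of 4 pairs of Srarp (64.7 against 102 CPM) and of Fabp4 and Aqp7 capillary-like cells (57.5 against 86.0 CPM).

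Within the subsets of other blood cells that had 4 pairs of pools, Plpp3 did not follow the class as a whole, in which peripheral pools were higher. In Igfbp3 and Ramp3 capillary-like cells it was at 843 CPM in peripheral and 1090 CPM in mesenteric pools, with 0 of 4 pairs higher in peripheral nodes. The log2 difference was -0.36 ± 0.16 (edgeR adjusted p = 0.639) without a block and -0.36 with the library block, where it passed as lower in peripheral nodes (adjusted p = 0.0069, beside 2.97% of genes). Srarp cells had 1213 against 1422 CPM with 1 of 4 pairs higher (-0.23 ± 0.16, adjusted p = 0.807). Arterial-like (732 against 749 CPM) and Fabp4 and Aqp7 capillary-like cells (959 against 1022 CPM) each had 2 of 4 pairs higher. Plpp3 was higher in both pairs of the Atp1b1 cluster (1095 against 683 CPM) and in the single pair of Penk and Col13a1 capillary-like cells (3883 against 3640 CPM), both of which made up a larger share of other blood cells in peripheral nodes.

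Markers of other cells moved in part with tissue. The summed 10 high endothelial markers were at 1367 to 3645 CPM in peripheral and 3586 to 7082 CPM in mesenteric pools of lymphatic cells, the reverse of the Enpp2 difference, and at 417 to 655 against 312 to 575 CPM in other blood cells, where they were higher in peripheral nodes in 4 of 4 pairs, the same way as Enpp2; their part in that difference was not tested. Enpp2 UMIs per Glycam1 UMI were 0.0196 in high endothelial-like cells, 0.0373 in floor-like lymphatic cells, where Glycam1 was at 8419 CPM, and 0.161 to 9.71 in the other endothelial subsets. The 7 myeloid markers summed to 22.0 to 55.0 CPM in peripheral and 1.06 to 14.1 CPM in mesenteric other blood cells, of which Fcer1g held 215 UMIs, Cd68 72 and each of the other 5 at most 13, Csf1r 2; their part in the Enpp2 result was not tested. The 9 stromal markers overlapped between tissues in other blood cells (15.9 to 31.0 against 14.8 to 25.2 CPM) and in lymphatic cells (153 to 192 against 142 to 266 CPM). The 5 platelet or red cell markers were at 2547 CPM in 1 pool of other blood cells, Xbp1-KO mesenteric of library 1, and at 7.95 to 167 CPM in the other 7. Without the pools of library 1 the Enpp2 tissue difference in other blood cells was 0.88. The 14 dissociation-response genes overlapped as well, at 23770 to 36114 against 19637 to 53884 CPM in other blood cells. In lymphatic cells they were at 23419 to 25122 CPM in peripheral pools and at 14047, 20194, 15537 and 27468 CPM in mesenteric pools, so 3 of 4 mesenteric pools lay below every peripheral pool; their part in the lymphatic Enpp2 difference was not tested.

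No gene of the 10 passed between Xbp1-KO and WT in any class, and Xbp1 itself did not pass either. Its log2 difference was -1.04 ± 0.16 in lymphatic (edgeR adjusted p = 0.152) and -0.81 ± 0.13 in other blood cells (adjusted p = 0.550). For high endothelial-like cells it was -0.56 ± 0.25 (adjusted p = 0.9998). A missing call is therefore no sign that a gene is unchanged. In high endothelial-like cells the WT pools had Enpp2 levels of 2554, 2326, 1852 and 1964 CPM and the Xbp1-KO pools of 1360, 1532, 2564 and 1822 CPM, in the order peripheral and mesenteric of library 1 and then of library 2. The groups overlap, with means of 2174 ± 324 and 1820 ± 532 CPM (SD, n = 4 each) and a log2 difference of -0.24 ± 0.21 (edgeR adjusted p = 0.9998). Differences of Enpp2 in other blood (-0.10 ± 0.17) and lymphatic cells (-0.25 ± 0.15) were of the order of their SE. The largest value was that of Sphk1 in lymphatic cells, with a mean of 9.47 ± 0.92 CPM in the WT pools and of 14.5 ± 5.57 CPM in the Xbp1-KO pools (0.63 ± 0.27, unadjusted p = 0.035, adjusted p = 0.812). Across all genes edgeR called 0 (0.0%) in each class, with 212, 238 and 648 genes at an unadjusted p under 0.05 in high endothelial-like, other blood and lymphatic cells. With the library as a block it called 0, 16 and 98 genes (0.0%, 0.16% and 0.919%), none of the 10 among them. Terms for a genotype difference that varies with class called none of the 10 either, beside 0.0126% of genes for high endothelial-like against lymphatic, 0.0266% against other blood and 0.01% for lymphatic against other blood cells. Enpp2 in high endothelial-like cells was at 1360 to 1964 CPM in the 4 pools that carry Xist and at 1822 to 2564 CPM in the other 4; the 10 high endothelial markers summed to 121146 to 204849 CPM in the first 4 and to 10432 to 53878 CPM in the other 4, and their part in the Enpp2 values was not tested. Since Xist pools are Xbp1-KO in library 1 and WT in library 2, sex is balanced over genotypes but cannot be told apart from a genotype difference that varies with library.

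Other genes of the pathway, from lists chosen with results of these data known, were read beside the 10. Of 33 further S1P and LPA genes, 18 were tested between lymphatic and other blood cells, and 11 were higher and 2 lower, beside 31.8% higher and 27.9% lower of all genes, with a median log2 difference of 0.45 beside 0.04. The S1P receptor gene S1pr3 was at 16.3 ± 7.27 CPM in lymphatic cells (266 UMIs) with 3 UMIs in other blood cells, a ratio of 64.5 with a 95% exact interval of 21.8 to 315 for counting error alone. The LPA receptor gene Lpar1 was at 21.1 ± 4.11 CPM (412 UMIs) against 3 UMIs, a ratio of 99.9 (33.9 to 486). S1pr4, by contrast, was lower in lymphatic cells (4.38 against 31.1 CPM; log2 difference -3.06 ± 0.16, edgeR adjusted p = 1.73e-12), as was the transporter gene Abcg2 (42.6 against 260 CPM; -2.74 ± 0.09). Sgpp1, an S1P phosphatase, was higher (38.7 against 8.5 CPM; 2.14 ± 0.16), and Gpam, which starts glycerolipid synthesis, was too (51.4 against 6.33 CPM; 2.75 ± 0.14).

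Of 28 genes that supply sphingolipids, 11 of 21 tested were higher and 2 lower in lymphatic than in other blood cells, with a median of 0.44 beside 0.04 for all genes. Those 13 of 21 calls stand beside 59.7% of all genes, a similar share. In high endothelial-like against other blood cells the counts were 6 higher and 4 lower of 19 (median 0.15 beside -0.03), where 43.6% of all genes passed, with Ugcg, the glucosylceramide synthase, at 268 against 94.1 CPM (1.90 ± 0.10, edgeR adjusted p = 2.5e-14) and the ceramidase Acer2 at 8.39 against 42.2 CPM (-1.82 ± 0.24, adjusted p = 4.11e-07). Of 17 genes of S1PR1 signalling and surface level, 8 of 15 tested were lower and 4 higher in high endothelial-like than in other blood cells (median -0.40 beside -0.03 for all genes, of which 22.5% were lower and 21.2% higher). Klf2, a flow-responsive factor, was at 949 against 2273 CPM and Klf4 at 533 against 1214 CPM, while Arrb1, an arrestin that takes receptors from the surface, was at 110 against 38.7 CPM (1.90 ± 0.13, adjusted p = 4.08e-12). The 14 dissociation-response genes, which hold no gene of this list, were also lower in high endothelial-like cells, in 8 of 8 pools (8521 to 20724 against 19637 to 53884 CPM); their part in these values was not tested. Between tissues 4 listed genes passed in lymphatic cells, 3 of 19 tested S1P and LPA genes, 1 of 21 sphingolipid genes and none of 17 S1PR1 signalling genes, beside 5.0% of all genes, so over the 3 lists the share was close to that of all genes: Abca1 (0.66 ± 0.15, adjusted p = 0.0207) and Ugcg (0.50 ± 0.13, adjusted p = 0.0429) were higher in peripheral nodes, and Agpat2 (-0.93 ± 0.21, adjusted p = 0.0234) and S1pr3 (-0.90 ± 0.23, adjusted p = 0.0373) lower. None passed between tissues in the other classes or between genotypes.

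Likeness was read as Pearson's r of log2(CPM + 1) over the 14 subset means, among 6395 genes. The subsets share libraries but differ in depth, and r is a description without a test. Lpar6 and Lpar4 had r = 0.905 with each other, Plpp1 and Plpp3 0.876, and Plpp3 0.806 with Lpar4 and 0.802 with Lpar6. Sphk1 ran the other way, at -0.870 with Lpar6 and -0.798 with Plpp3. Outside the 10, the genes most like Enpp2 were St3gal6 (0.907), Upp1 (0.893) and Gm36756 (0.886). Those most like Plpp3 were Arl6ip5 (0.969), Cxcl12 (0.964) and Pde8a (0.957), and like Plpp1 Map1lc3a (0.919), Slc35b1 (0.895) and Tspan12 (0.889). For S1pr1 they were Abr (0.938), Fryl (0.909) and Aqp7 (0.874). Spns2 was closest to Zfp423 (0.929), Bcr (0.897) and As3mt (0.861), Sphk1 to Ackr2 (0.934), Cldn11 (0.908) and Gchfr (0.894), and Sgpl1 to Sec61a1 (0.916), Phf20 (0.915) and Gna12 (0.907). Lpar6 was closest to Nes (0.942), Arhgap18 (0.940) and Sp100 (0.936), Lpar4 to Pdgfd (0.951), Spata13 (0.945) and Gask1b (0.942), and Sphk2 to Map3k4 (0.864), Dleu2 (0.773) and Stk40 (0.771).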

How the data were processed

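The deposited values are raw UMI counts per gene and barcode made by the authors with Cell Ranger, version 6.0.1 per the file headers and 6.1 on mm10 per the submitters' processing notes. Kit version 2 and chemistry version 3 both appear in the labels; whether introns were counted and how strands were treated are not given in the sources used here. Hashtags were called with HTODemux (Seurat 5.3.0, quantile 0.99), leaving 6786 and 2690 single-tag barcodes; Scrublet removed 65 and 4 more (0.958% and 0.149%, so few same-tag doublets were found in library 2). Cells needed at least 500 genes and at most 10% mitochondrial UMIs. Clustering (scanpy 1.11.5; 1983 variable genes, 30 components, 15 neighbours, Leiden resolution 1) used neither the 10 genes nor the listed pathway genes. A name needed at least 3 of its markers in 10% of the cells; lymphatic clusters had Prox1 in at least 25%.

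Raw counts were summed per pool and class (87744 to 6555446 UMIs) and tested with edgeR 4.0.16 (quasi-likelihood, TMM, filterByExpr), with Benjamini-Hochberg adjustment over all genes tested; a gene is called at an adjusted p under 0.05. Contrasts of classes had the pool as a block; tissue and genotype used 4 group means without a block. Pools of a library share its droplets and sequencing, so the library number marks a batch: over 6 pairs of groups, the correlation of deviations between pools of a library was -0.02 to 0.22 in high endothelial-like, 0.21 to 0.62 in other blood and 0.09 to 0.39 in lymphatic cells. Recovery was tried on counts simulated independently for each pool, with no effect of library, sex or animal shared between pools. Changes of 2-fold and 4-fold set between genotypes were found in 28% and 82% of cases in high endothelial-like cells. The shares were 70% and 92% in other blood and 78% and 96% in lymphatic cells. Changes set between lymphatic and other blood cells were found in 98% and 100%. False calls were 8, 10, 9 and 15 in the same order. For pools of a library that deviate together these shares were not tested. Alternatives were DESeq2 1.42.0, total counts, no filter on low counts, Leiden resolution 2, stricter cell filters, a ratio rule for hashtag calls, the library block, WT pools alone and leaving out each replicate. In tissue and genotype contrasts the last leaves 1 pool per group. The p-values of those fits hold no spread between libraries and are not printed.

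The 10 genes and the lists were chosen with earlier results of these data known. All 10 genes are named in each contrast; of other listed genes, at most the 6 with the largest change per contrast among those called, and for likeness the 3 with the highest r among genes with a mean of at least 20 CPM; Klf2, Klf4 and the tissue contrast's 4 genes are named within these limits or after their values were seen. Coordinates come from GENCODE M21 on GRCm38, in which 32158 of 32285 gene identifiers (99.6%) were found. Intervals and limits cover counting error only.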

Additional observations from a re-analysis of the deposited data

Results flagged for a closer look

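In 6 of 60 groups of 4 pools, 1 pool lay far from the others by Dixon's criterion; chance gives about 1 in 20. Enpp2 in other blood cells of mesenteric nodes had its highest pool, WT of library 1, at 617 CPM. Sphk1 in lymphatic cells of mesenteric nodes was highest in Xbp1-KO of library 2, at 21.6 CPM, and Plpp3 in lymphatic cells of peripheral nodes in WT of library 2, at 96.2 CPM. The same pool was lowest for Lpar6, at 20.5 CPM. Lpar4 in high endothelial-like cells of peripheral nodes was highest in Xbp1-KO of library 2, at 22.8 CPM, and in lymphatic cells of mesenteric nodes lowest in WT of library 1, at 0.431 CPM. These Lpar4 groups held only 7 and 8 UMIs over their 4 pools, so counting error alone is large.

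The tissue difference of 3 genes varied with class by a test of the difference itself: Spns2 by 0.62 and Plpp1 by -0.72 on the log2 scale in lymphatic against other blood cells, and Enpp2 by -0.86 in high endothelial-like against other blood cells. Within Srarp and within Igfbp3 and Ramp3 blood cells, Plpp1 was higher in peripheral nodes in 0 of 4 pairs, as in lymphatic subsets. Spns2 in the Ackr4 cluster was at 311 against 299 CPM. The mix of subsets differed by tissue, and its part in these terms was not tested.

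Stromal-like cells, which no comparison uses, had Enpp2 at a mean of 860 ± 671 CPM (SD, n = 5 pools).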

How the results depend on the processing

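Of 905 values under alternative settings, 717 for single genes and 98 for counts of genes kept the direction and the side of the threshold, or moved by less than the criterion for values without a test. In the tissue contrast of other blood cells 1 of the 10 genes was called. The library replicate block called 2 and the block with a library-by-genotype term 3. In lymphatic cells 1 was called. There the replicate block called 3, the block with a library-by-genotype term 3, no filter on low counts 3, stricter cell filters 2 and total counts 2. Enpp2 was not called there without the pools of library 1. Spns2 in high endothelial-like against lymphatic cells reversed with total counts, to -0.39. Counts over all genes rose with the block from 97 to 496 (tissue, other blood), 533 to 1396 (tissue, lymphatic), 26 to 43 (tissue, high endothelial-like), 0 to 16 (genotype, other blood) and 0 to 98 (genotype, lymphatic); the causes were not tested. A ratio rule for hashtag calls moved 8 of 79 values of single genes, all in tissue or genotype contrasts of high endothelial-like cells, none of which passed the test. High endothelial-like pools held 12 to 131 cells each, which limits the precision of their sums.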
